A study of Mus musculus with 8 samples.

Results

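The genes described here bind, store, move or sense iron and heme: the hepcidin gene Hamp, the plasma proteins haptoglobin (Hp), hemopexin (Hpx) and ceruloplasmin (Cp), the siderophore-binding protein lipocalin 2 (Lcn2), transferrin receptor (Tfrc), the ferritin chains Fth1 and Ftl1, ferroportin (Slc40a1) and heme oxygenase 1 (Hmox1). They were chosen by name, as every probe set to which the platform annotation gives 1 of these symbols and no other. This found 15 of 12488 probe sets, for 8 of the 10 genes, among 8252 genes with such a probe set in all. The annotation used here lists no probe set for Slc40a1, and the only one for Ftl1 carries several symbols, so neither gene has a value. Of the 15 probe sets, 3 are control probe sets for Tfrc that the array maker placed on every array.

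The samples were livers of 8 female Ames dwarf mice (df/df), which lack growth hormone, prolactin and thyrotropin. All ate a standard pelleted diet ad libitum and were 24 to 26 months old when killed. Total liver RNA of each was hybridised to its own Affymetrix U74Av2 array, on which each probe set is a group of short oligonucleotides that report 1 signal. The 8 livers form 1 group and are numbered as in their labels, so there is no control genotype, diet or age, and every value below describes differences from liver to liver.

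Hepcidin is a peptide hormone made mainly by hepatocytes. It binds ferroportin, the only known exporter of iron from cells, and causes its degradation, so that iron stays in macrophages, gut cells and hepatocytes. Its gene is driven by bone morphogenetic proteins (BMPs) acting through SMAD factors when iron is high, and by interleukin 6 acting through STAT3 in inflammation. The liver also secretes haptoglobin, hemopexin and ceruloplasmin, which are acute-phase proteins, and ferritin and transferrin receptor are controlled by iron mainly after transcription.

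The arrays were close in median signal and well correlated, but differed more at the highest signals. Their median signal lay between 156 in liver 3 and 181 in liver 8, and the Pearson correlation between any pair across 6211 tested probe sets (not independent of each other) was 0.907 to 0.973. The highest signal of any probe set was between 27092 in liver 6 and 39246 in liver 3. All 13 hepatocyte markers on the array had a mean signal above that of the median probe set. Among tested genes, livers 4 and 8 stood apart in some immune lists and not in others. Highest in liver 4 were 14 of 14 tested interferon-induced genes and 12 of 13 tested macrophage and Kupffer cell markers, but 1 of 5 tested lymphocyte and 0 of 3 tested neutrophil markers, beside 17.7% of 4819 tested genes. Livers 4 and 8 were both the highest livers at all 14 of the interferon-induced genes and at 11 of the 13 macrophage markers. Most of the 14 lymphocyte and 13 neutrophil markers on the array were too dim to be tested. Some of those were highest in liver 4 and others were not. Mean log2 signals of the spiked-in bacterial controls were 10.70 to 10.88 on arrays 1 to 4 and 10.18 to 10.46 on arrays 5 to 8. The labels name no batch, so this difference has no known source.

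The spread of the iron and heme genes between livers ran from very narrow to very wide. Lcn2 spanned 76.7-fold, while Fth1, Hp and 1 probe set of Hpx spanned at most 1.33-fold. Probe sets were tested where their mean log2 signal was above the median, which corresponds to a signal of 162. Each was set against the typical variance of probe sets of like signal (the typical-variance test). That variance was read from a loess curve, with a chi-square distribution and Benjamini-Hochberg adjustment over all 6211. Past an adjusted p of 0.05 were 4 of 11 tested iron and heme probe sets, beside 11.3% of all probe sets. These were the brighter probe sets of Lcn2 and Tfrc, the dimmer of Hpx, and Hmox1. Under limma, which sets each variance against a prior drawn from all probe sets and recovered 1 of 100 probe sets with a 3-fold raised SD on simulated data with variances as unequal as these, 0 of 11 passed, beside 0.0% of all, and 4 of 11 had an unadjusted p under 0.05, beside 6.84%. The range exceeded 2-fold at 5 of 11, beside 23.4% of all, and the median range was 1.82-fold over the 11 and 1.63-fold over all tested probe sets. In bulk liver RNA, fewer cells of a type and less RNA per cell cannot be told apart.

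**Figure D1:**
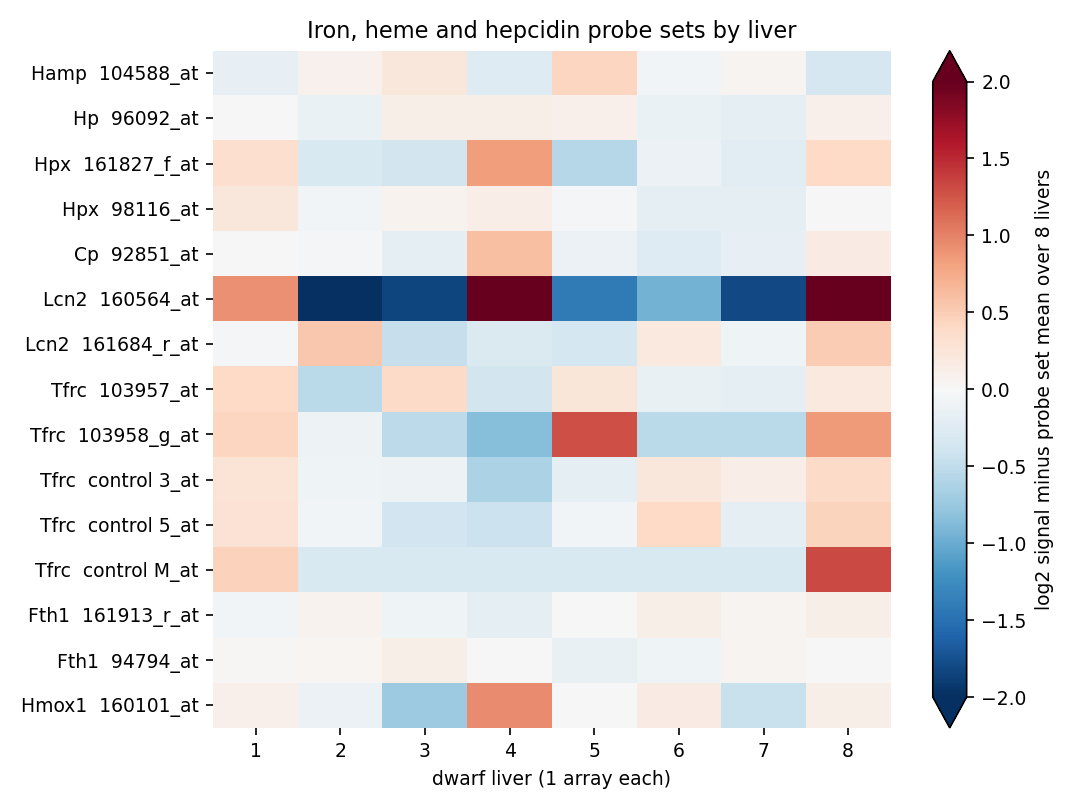
Log2 signal of the 15 iron and heme probe sets in each of the 8 livers (columns), minus the probe set's mean over the livers, with values beyond 2 in either direction drawn in the end colours. The brighter Lcn2 probe set is at the high end in livers 4 and 8, where Hamp is at its lowest, and Tfrc 103958_g_at is highest in liver 5.

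**Figure D2:**
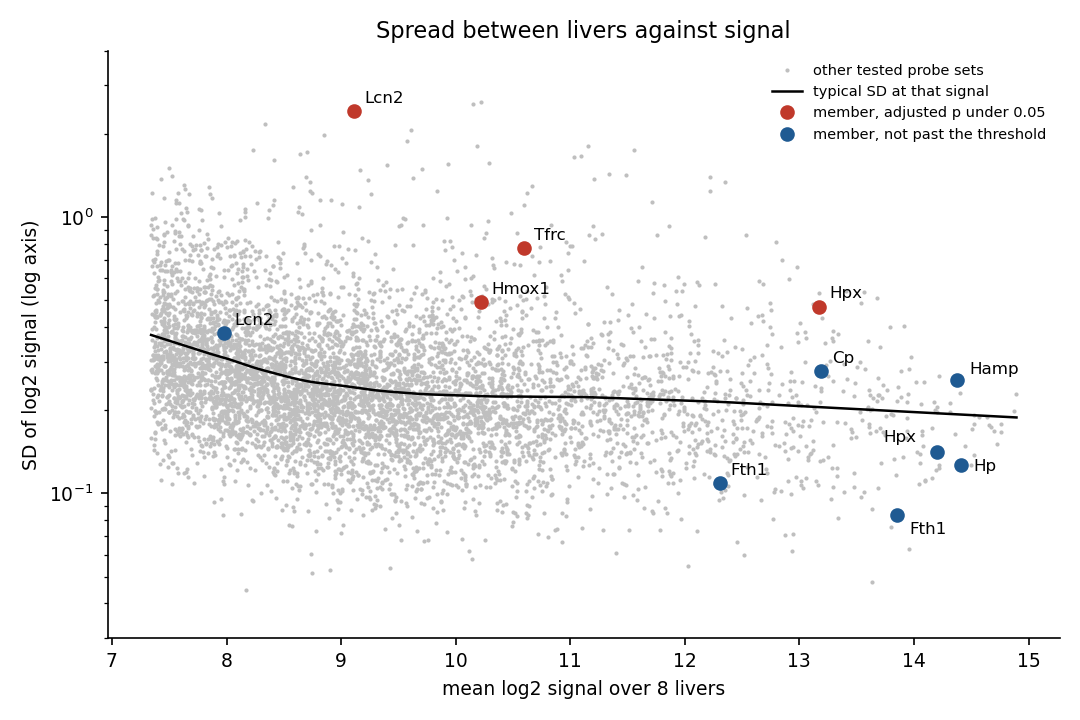
Standard deviation (SD) of log2 signal over the 8 livers (log axis) against mean log2 signal for the 6211 tested probe sets, with the 11 iron and heme probe sets in colour and the typical SD as a line. Lcn2, Tfrc, Hmox1 and 1 Hpx probe set, in red, lie above the line and past the typical-variance test, and both Fth1 probe sets lie below it.

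Hamp (chr7:30942368-30944029, GRCm38.p6 as for all positions here) was among the brightest probe sets of every liver, at the 99.7th percentile of its array or above. It read 18943, 22697, 25028, 17902, 28792, 20526, 22099 and 16873 in livers 1 to 8. The mean was 21608 ± 3949 (SD, n = 8), and the livers formed a graded series with no gap, from liver 8 at the low end to liver 5 at the high end. The range was 1.71-fold, and the SD of log2 signal was 1.33 times the typical SD, which did not pass the typical-variance test (adjusted p = 0.42). As deposited, Hamp was the only tested iron or heme probe set at which livers 4 and 8 were the lowest livers, which happened at 11.0% of all tested probe sets. Liver 8 stayed lowest and liver 5 highest when arrays were scaled to the same median, quantile normalized, or scaled to their 50 brightest other probe sets. Liver 4 stayed second lowest with equal medians or quantile normalization. With scaling to the 50 brightest other probe sets it was 19893, above liver 1 at 19375. The offset of those 50 probe sets was lowest on arrays 4 and 8, at -0.15 and -0.13 on the log2 scale. At signals this high the scaling matters: the highest signal of any probe set was itself 1.45-fold higher on array 3 than on array 6, and Hamp ranged 1.44-fold after scaling to the brightest probe sets. Mice carry a closely similar paralog, Hamp2, and whether these probes also read its transcript is not known here.

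The bases upstream of Hamp and Lcn2 are shown because both genes are known to respond to inflammation in liver, and their correlation over the livers, given further on, was negative without passing its test after adjustment. They are the 250 bases before the transcript start in RefSeq (GRCm38.p6), at chr7:30944030-30944279 for Hamp and chr2:32387740-32387989 for Lcn2, both printed on the minus strand. Capitals mark matches to a STAT motif (TTCNNNGAA), a BMP response element (GGCGCC) or a C/EBP motif (TTNNGNAAT), searched on both strands.
Hamp: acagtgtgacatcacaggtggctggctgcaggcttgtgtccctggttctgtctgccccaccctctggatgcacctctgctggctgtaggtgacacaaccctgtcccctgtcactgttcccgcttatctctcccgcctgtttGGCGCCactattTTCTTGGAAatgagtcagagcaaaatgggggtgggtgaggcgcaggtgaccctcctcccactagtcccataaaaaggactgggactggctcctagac
Lcn2: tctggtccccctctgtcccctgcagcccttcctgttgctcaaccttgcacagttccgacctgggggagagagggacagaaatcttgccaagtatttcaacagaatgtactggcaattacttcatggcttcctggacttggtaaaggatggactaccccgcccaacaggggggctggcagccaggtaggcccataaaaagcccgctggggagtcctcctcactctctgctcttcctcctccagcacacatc
The Hamp window held a BMP response element 109 to 104 bases before the start and a STAT match, TTCTTGGAA, 97 to 89 bases before it. Of 32851 upstream windows of the same length, 9.59% held GGCGCC, 7.02% held the STAT motif and 10.2% held the C/EBP motif. The Lcn2 window held none of the 3, which says only that these letters are not in this window. Among the other iron and heme genes with an upstream window (Hpx, Cp, Tfrc, Fth1 and Ftl1), GGCGCC occurred before 1 of the 2 Tfrc starts and the C/EBP motif before Ftl1. An antioxidant response element (TGANNNNGC), the motif through which heme and oxidants act on Hmox1, was in 35.2% of all windows and among these genes only before Hpx.

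Lcn2 (chr2:32384637-32387739), which binds bacterial iron-carrying siderophores and is made by hepatocytes and neutrophils in inflammation, was the most variable of these genes. Its brighter probe set, 160564_at, read 1051, 133, 156, 10195, 208, 289, 158 and 4288 in livers 1 to 8. Liver 4 was 49.1 times the median of the other 7 livers and liver 8 was 20.7 times, liver 1 came next, and the other 5 lay between 133 and 289. The SD of log2 signal was 10.02 times the typical SD (adjusted p = 4.90e-144, typical-variance test), and limma gave an adjusted p of 0.0726. Without livers 4 and 8 the range was still 7.91-fold. It was the only iron or heme probe set that ranged more than 10-fold, as 0.757% of all tested probe sets did.

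The other Lcn2 probe set, 161684_r_at, did not show this pattern. It read 244, 365, 182, 207, 198, 290, 237 and 359 in livers 1 to 8. Liver 2 was highest and liver 4 among the 3 lowest, and the correlation between the 2 Lcn2 probe sets was 0.07 (Pearson's r of log2 signal over 8 livers). The suffix r marks probe sets that did not meet all of the array maker's probe selection rules. Disagreement between probe sets of a gene was common: over 886 pairs of tested probe sets with the same symbol the median r was 0.24, and 32.1% were below 0.

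Neutrophils also express Lcn2, so their markers are given beside it. Of the 13 neutrophil markers on the array 3 were tested and 0 passed the typical-variance test (1 at an unadjusted p under 0.05, and 0 by limma). The summed signal of all 13 was between 1504 in liver 7 and 2126 in liver 2, and Csf3r was the largest part of it. Of the 3 tested, 0 were highest in liver 4, beside 17.7% of all tested genes. Lowest there were 2, Camp at 113 and Csf3r at 553, beside 22.4%. The other 10 were below the test signal on average, among them S100a8 and S100a9, subunits of a neutrophil and myeloid calcium-binding protein, which were highest in liver 4, at 369 and 231, and next in liver 8, at 247 and 212. Some of the other dim neutrophil markers were also highest in liver 4, and others were not. The 4 neutrophil genes named here were chosen for naming after their values were seen. Of the tested macrophage and Kupffer cell markers 11 of 13 passed the typical-variance test, beside 10.2% of all tested genes. The summed signal of all 17 such markers on the array was between 6409 in liver 7 and 31058 in liver 4. Of 19 tested acute-phase genes 13 passed, and 12 were highest in liver 4, beside 17.7% of all tested genes. The part of these cell types in the Lcn2 signal was not tested.

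**Figure D3:**
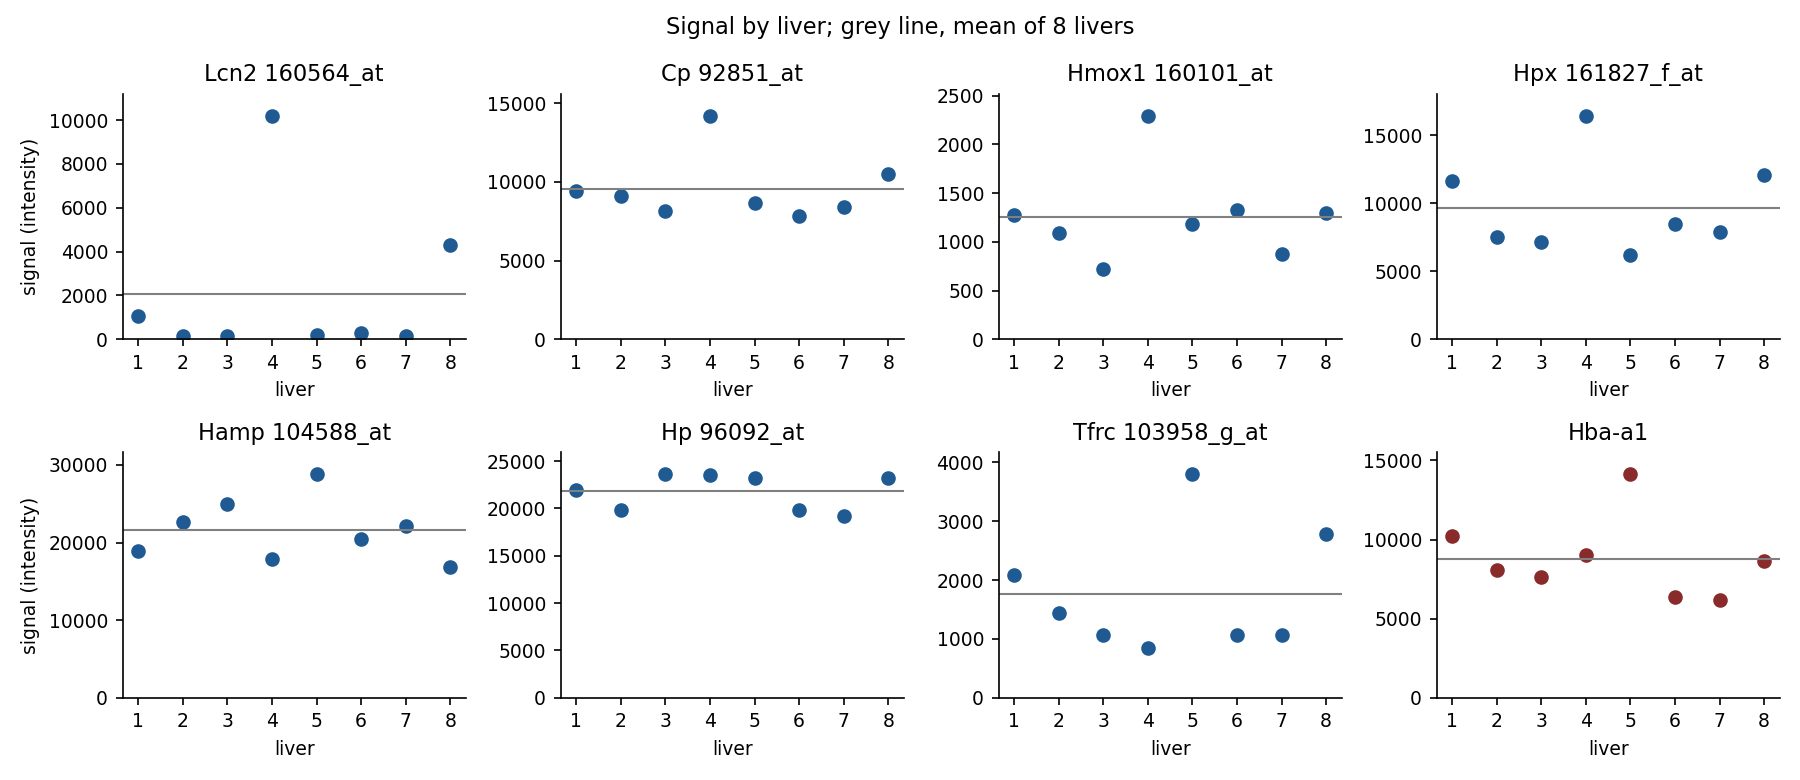
Signal (intensity, linear axes from 0) in each of the 8 livers for 7 iron and heme probe sets and for the globin gene Hba-a1 in red, with the mean as a grey line. Liver 4 is highest for Lcn2, Cp, Hmox1 and Hpx 161827_f_at, and liver 5 is highest for Hamp, Tfrc and Hba-a1.

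Haptoglobin (Hp, chr8:109575128-109579172), which captures free hemoglobin, was bright and even across livers. It read 21917, 19878, 23596, 23512, 23238, 19832, 19165 and 23229 in livers 1 to 8. Livers 3, 4, 5 and 8 lay within 1.02-fold of each other at the top, and the whole range was 1.23-fold, narrower than typical for that signal. The mean was 21796 ± 1882 (SD, n = 8).

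The order of the livers for Hp depended on how arrays were scaled. As deposited, liver 3 was highest, followed by livers 4, 5 and 8. After quantile normalization the values in livers 4 and 8 were 26108 and 25785, and the other 6 lay between 19197 and 22609. After scaling to the 50 brightest other probe sets they were 26128 and 25445, with the others between 18528 and 22416. After scaling to the same median, liver 3 was highest at 25548 and liver 4 was at 22267. The whole range stayed within 1.41-fold under every scaling tried. The shift that the brightest-probe-set scaling put on whole arrays ran from -0.21 in liver 3 to 0.15 in liver 4 on the log2 scale, as large as the Hp differences themselves.

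**Figure D4:**
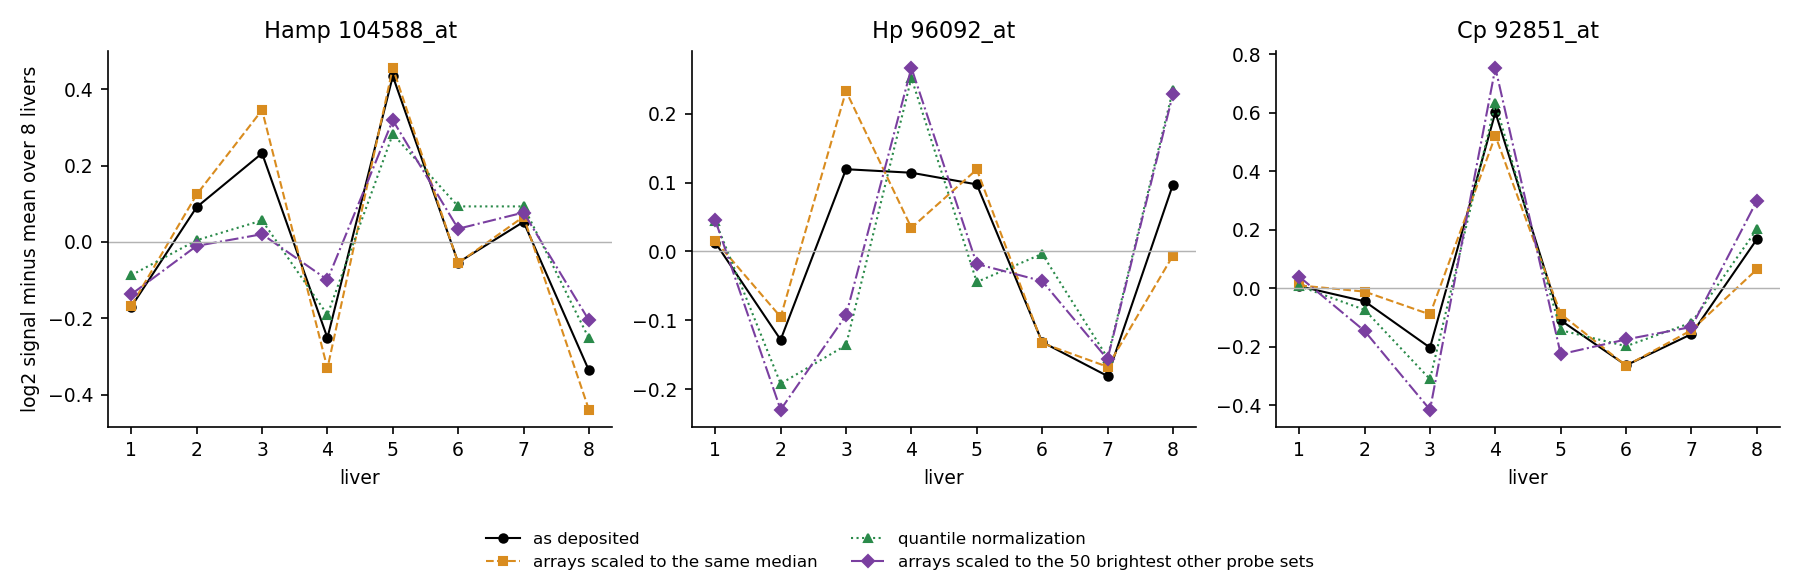
Log2 signal minus the mean over 8 livers (vertical axis) for Hamp, Hp and Cp in each liver, as deposited and under 3 other scalings of the arrays. Liver 4 is highest for Cp and liver 8 lowest for Hamp under all 4, while Hp is highest in liver 3 as deposited or with equal medians and in liver 4 under quantile normalization or scaling to the 50 brightest other probe sets.

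Hemopexin (Hpx, chr7:105591611-105600116), which binds free heme and carries it to the liver, had 2 probe sets that differed in spread. The dimmer, 161827_f_at, read 11675, 7493, 7146, 16435, 6234, 8496, 7908 and 12108 in livers 1 to 8. Liver 4 was highest, with livers 8 and 1 next, and the range was 2.64-fold (adjusted p = 8.46e-05, typical-variance test). The brighter, 98116_at, read 22069, 18153, 19769, 20658, 18568, 16730, 16655 and 19020 in the same order. There liver 1 was highest, with livers 4 and 3 next, and the range was 1.33-fold, with an SD of log2 signal 0.72 times the typical SD. This order depended on scaling. After quantile normalization livers 1, 4 and 8 were the highest at 98116_at. With arrays scaled to the 50 brightest other probe sets liver 4 was highest at 22956, with livers 1 and 8 next. As deposited, the probe sets had livers 1 and 4 among their 3 highest in common (r = 0.55), and the suffix f marks probes shared within a family of sequences. The call at 161827_f_at was lost without livers 4 and 8 (adjusted p = 0.139).

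Ceruloplasmin (Cp, chr3:19956933-20009750), the copper-carrying ferroxidase that loads exported iron onto transferrin, read 9406, 9075, 8133, 14190.5, 8674, 7800, 8397 and 10509.8 in livers 1 to 8. Liver 4 was 1.64 times the median of the other 7 and liver 8 was next, while the 6 others lay within 1.21-fold of each other. The range of 1.82-fold did not pass the typical-variance test (adjusted p = 0.377), and it passed after quantile normalization (adjusted p = 0.049). Liver 4 was highest and liver 8 second under each of the 4 scalings. Cp, Lcn2 160564_at and Hpx 161827_f_at were the 3 of 11 tested probe sets at which livers 4 and 8 were the highest livers, beside 9.34% of all tested probe sets.

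Heme oxygenase 1 (Hmox1, chr8:75093618-75100593) opens the heme ring and frees its iron, mainly in macrophages and under oxidative stress. It read 1276, 1093, 718, 2294, 1186, 1329, 871 and 1292 in livers 1 to 8. Liver 4 alone stood above the rest, at 1.93 times the median of the other 7, and liver 8 was close to that median. The range of 3.20-fold passed the typical-variance test (adjusted p = 0.000361), and did not without liver 4, where it was 1.85-fold (adjusted p = 0.151). With Lcn2, Cp and Hpx 161827_f_at it made 4 of 11 tested probe sets highest in liver 4, beside 17.2% of all.

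Transferrin receptor (Tfrc, chr16:32608896-32632794), which takes up transferrin-bound iron and is most abundant on erythroid precursors, followed another pattern. Its bright probe set, 103958_g_at, read 2089, 1441, 1074, 853, 3794, 1059.8, 1066 and 2781 in livers 1 to 8. Liver 5 was highest, then livers 8 and 1, and liver 4 was lowest, unlike for Lcn2, Cp and Hmox1 (second to liver 3 when arrays were scaled to the 50 brightest other probe sets). The range was 4.45-fold and the SD of log2 signal 3.45 times the typical SD (adjusted p = 1.66e-13, typical-variance test).

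The other Tfrc probe sets were dim and had different highest livers. Probe set 103957_at read between 52.8 in liver 2 and 100.7 in liver 1, with a median of 78.5, below the signal needed for a test. The 3′ control read between 91.3 in liver 4 and 184 in liver 8, and the 5′ control between 34 in liver 4 and 62.4 in liver 8. The middle control was above the floor of 11.2 in 2 livers only. Each of these correlated positively with 103958_g_at (r = 0.33 to 0.53), and liver 5 was highest in none of them. The suffix g marks probes shared by a group of probe sets.

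The summed signal of the 11 erythroid markers on the array was also highest in liver 5, with most of it from Hba-a1. Of these markers 5 were tested. Liver 5 was the highest at 2 of the 5, Hba-a1 and Alas2, beside 18.8% of all tested probe sets. The markers too dim to be tested were highest in other livers. Hbb-b2 was highest in liver 1 at 4207, Klf1 in liver 6 at 659.9 and Bpgm in liver 4. Of the 5 tested markers 2 passed the typical-variance test, Hba-a1 and Bpgm, beside 10.2% of all tested genes. Alpha globin (Hba-a1) was 14118 in liver 5 and between 6166 and 10226 in the others, and the sum was between 10861 in liver 7 and 20647 in liver 5. Bpgm, the red-cell enzyme that makes the hemoglobin effector bisphosphoglycerate, was between 58.8 in liver 2 and 307 in liver 4. The part of blood or erythroid cells in the Tfrc signal was not tested.

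Ferritin heavy chain (Fth1, chr19:9980600-9985111), which oxidises iron as it enters the ferritin shell, was the steadiest of these genes. Probe set 94794_at read 15057, 15175, 16036, 14920, 13328, 13914, 15322 and 14729.8 in livers 1 to 8. Its coefficient of variation was 5.69%, and the SD of log2 signal was 0.42 times the typical SD. Liver 3 was highest as deposited and with arrays scaled to the same median, liver 7 after quantile normalization, and liver 4 with arrays scaled to the 50 brightest other probe sets. Probe set 161913_r_at read 4859, 5314, 4744, 4421, 5041, 5461, 5229 and 5482, a range of 1.24-fold, and did not follow the first (r = -0.30).

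Pairs of these genes with linked roles were then set against each other over the 8 livers, by Pearson's r and Spearman's rho of log2 signal with exact two-sided permutation tests. Of 10 pairs, 8 had a probe set for both genes and were run, and p-values were adjusted over the 8. The pair Lcn2 and Cp passed (r = 0.89, exact permutation p = 0.00379, adjusted 0.0304). Its rank correlation did not (rho = 0.62, exact permutation p = 0.115, adjusted 0.23), and without livers 4 and 8 r was 0.43, so the relation rests on those livers. Within arrays 1 to 4 r was 0.93 and within arrays 5 to 8 it was 0.88, with 4 livers each. Each set of 4 holds liver 4 or liver 8, so these values cannot show a relation apart from those livers.

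Hamp tended to be lower in the livers where Lcn2 was higher, without passing the threshold after adjustment. The correlation was r = -0.80 (exact permutation p = 0.0179, adjusted 0.0714) and rho = -0.81 (exact permutation p = 0.0218, adjusted 0.174). As deposited, both genes were on the same side of their medians in 0 of 8 livers, and with arrays scaled to the 50 brightest other probe sets in 2 of 8. Without livers 4 and 8, r was -0.62 (exact permutation p = 0.206, adjusted 0.411). Without livers 5 and 8, the farthest from the median of Hamp, r was -0.87. Within arrays 1 to 4 and 5 to 8 it was -0.91 and -0.77, each set again holding liver 4 or liver 8. The adjusted p was 0.0383 with arrays scaled to the same median (r = -0.84), 0.0167 after quantile normalization (r = -0.82), and 0.15 with arrays scaled to the 50 brightest other probe sets (r = -0.66).

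Lcn2 and Hp did not pass as deposited (r = 0.53, exact permutation p = 0.195, adjusted 0.311; rho = 0.21, exact permutation p = 0.619, adjusted 0.708). Without livers 4 and 8 r was 0.17. After quantile normalization r was 0.97 (adjusted p = 0.000149), and with arrays scaled to the 50 brightest other probe sets it was 0.95 (adjusted p = 0.00134), following the change in the order of livers for Hp described above. The values within arrays 1 to 4 and 5 to 8 were 0.49 and 0.58 as deposited.

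The remaining 5 pairs did not pass. Hp and Hpx 98116_at, both scavengers of lysed red cells' contents, had r = 0.70 (exact permutation p = 0.0633, adjusted 0.169). Tfrc and Fth1, which iron controls in opposite directions, had r = -0.54 (exact permutation p = 0.169, adjusted 0.311). Hmox1 and Fth1 had r = -0.39 (exact permutation p = 0.329, adjusted 0.439), Hpx and Hmox1 r = 0.33 (exact permutation p = 0.441, adjusted 0.504), and Hamp and Hp r = -0.03 (exact permutation p = 0.933, adjusted 0.933).

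**Figure D5:**
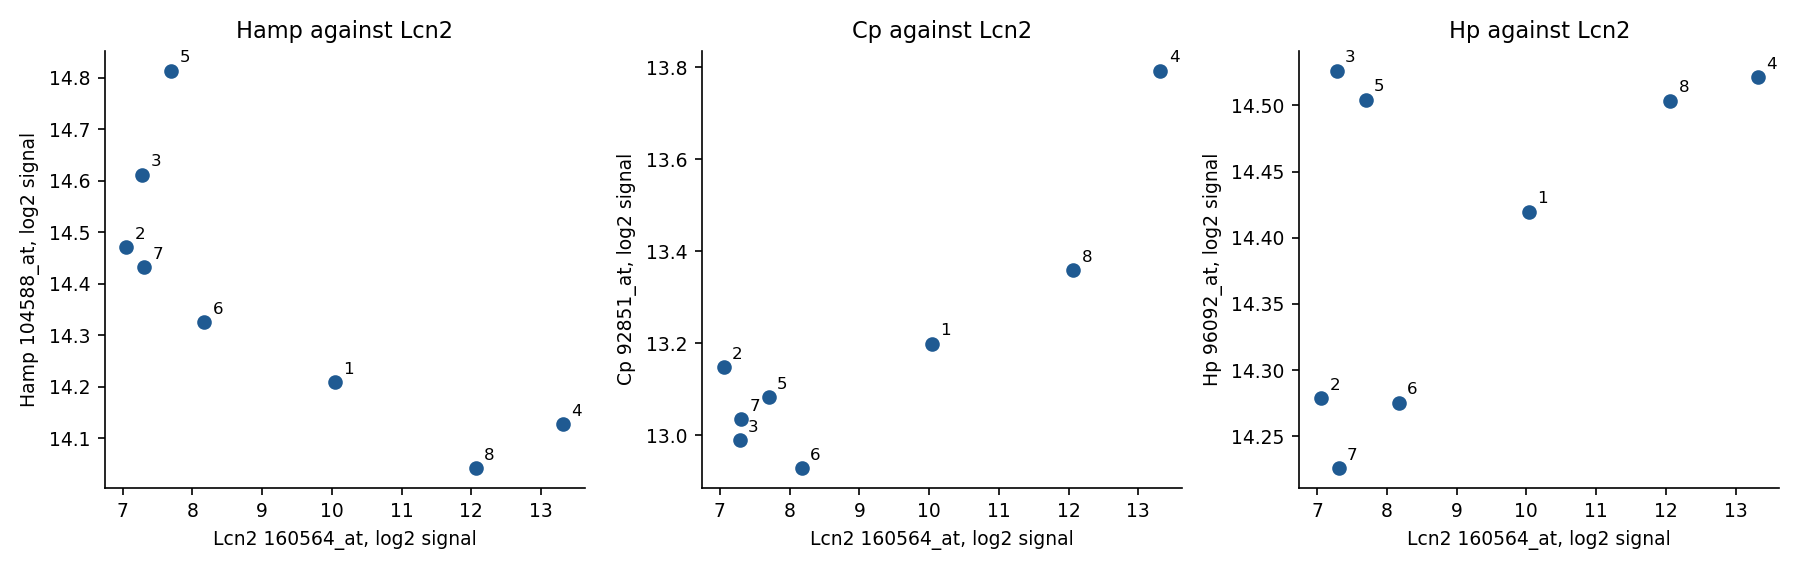
Log2 signal of Hamp, Cp and Hp (vertical axes) against that of Lcn2 160564_at in the 8 livers, each point labelled with its liver. Livers 4 and 8 lie at the right in each, at the low end for Hamp, the high end for Cp, and level with livers 3 and 5 for Hp.

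The tested genes whose pattern over the 8 livers was most like that of each of 4 members are given as a description, ranked by Pearson's r of log2 signal among 4818 genes that share the same arrays. For Hamp the nearest were Ppp1r15b (r = 0.97), Tmem222, Lpp, Wwc1 and Pcnp (r = 0.95 each). Ppp1r15b, a phosphatase subunit that reverses phosphorylation of the translation factor eIF2 alpha, was 1914 in liver 5 and 770 in liver 4. For Lcn2 the nearest were Serpinb9 (r = 0.98), Gbp7 (r = 0.98), Selplg (r = 0.98), Tap2 (r = 0.98) and Gbp2 (r = 0.98). Gbp2, an interferon-induced GTPase, was 4848 in liver 4 and 2777 in liver 8, against 129 to 465 in the other 6. Serpinb9, a granzyme B inhibitor, ranged 2.66-fold in the same order of highest livers.

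For Cp the nearest were Tmem43 and Mbp (r = 0.97 each), Trip6, Dynll1 and Lmo2 (r = 0.96 each), all highest in liver 4. Dynll1, a dynein light chain, was 2251 in liver 4 and 848 in liver 7. For Tfrc the nearest were Cdh3 and Tmem41b (r = 0.96 each), Ccl1 (r = 0.95), Ap2a2 (r = 0.94) and Mettl18 (r = 0.92). Ap2a2, a subunit of the adaptor that gathers receptors such as transferrin receptor into clathrin-coated pits, was 1418 in liver 5, 1378 in liver 8 and 987 in liver 4.

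Other genes of iron uptake, storage, hepcidin control and heme metabolism varied about as much as liver genes in general. Of 103 listed genes 77 were on the array and 61 were tested, and 6 passed the typical-variance test, beside 10.2% of 4819 tested genes. Their median range was 1.61-fold, as over all tested genes. The 6 were Slc11a1, Il6ra, Cebpb, Atf3, Alas1 and Bach1.

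Among 6 tested genes of iron uptake and transport, Slc11a1 passed (adjusted p = 4.27e-07, typical-variance test). This phagosomal metal transporter of macrophages was 580 in liver 4 and 505 in liver 8, and between 126 and 362 in the others, the same 2 highest livers as for Lcn2 160564_at. Slc11a2, the intestinal and endosomal iron importer, ranged 1.77-fold and the mitochondrial iron importer Slc25a28 1.57-fold. Of 8 tested genes of storage, iron sensing and iron-sulfur clusters 0 passed the typical-variance test, with 0 at an unadjusted p under 0.05 by it or by limma. The widest were Fdx1, a mitochondrial ferredoxin (1.77-fold), Nfs1, the sulfur donor enzyme for iron-sulfur clusters (1.73-fold), and the iron chaperone Pcbp2 (1.56-fold).

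Of 24 tested genes in the control of hepcidin 3 passed, and none of them followed Hamp in having liver 5 highest. The interleukin 6 receptor chain Il6ra was highest in liver 3 at 1076 and lowest in liver 6 at 234 (adjusted p = 2.94e-07, typical-variance test). The liver transcription factor Cebpb was 3016 in liver 4 and lowest, 1161, in liver 1 (adjusted p = 0.000442). The stress-induced factor Atf3 was 563 in liver 4 and between 184 and 272 elsewhere (adjusted p = 0.0435). Id1, a target of BMP signalling, was highest in liver 5 at 495, as Hamp was, and lowest in liver 3 at 186 (adjusted p = 0.25).

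In heme synthesis 1 of 9 tested genes passed. Alas1, the rate-limiting enzyme in liver, was highest in liver 3 at 13416, next in liver 5 at 13143, and lowest in liver 4 at 7149 (adjusted p = 0.0425, typical-variance test). Ppox, a later enzyme of the pathway, ranged 2.14-fold and the mitochondrial membrane protein Tspo 1.78-fold. In heme breakdown and transport 1 of 16 passed, Bach1, the heme-sensing repressor of Hmox1. Bach1 was 1117 in liver 4, where Hmox1 was also highest, and 427 in liver 1 (adjusted p = 0.0114). Nqo1, another target of the antioxidant response element, ranged 2.64-fold, and biliverdin reductase Blvra 2.10-fold.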

How the data were processed

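Values in the deposited table are linear intensities, 1 for each probe set on each array. Which software made them is not given in the sources used here, nor are detection calls. Array means trimmed by 2% at either end differed by 0.009%, so the values were taken as already scaled between arrays and left as they were. Intensities below the 10th percentile, 11.2, were set to it before log2 transformation. Control probe sets (66) were left out of tests, and probe sets with a mean above 162 were tested. Probe sets were named through the platform annotation, and positions are those of RefSeq (GRCm38.p6).

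Variability was tested with limma 3.58.1 (R 4.3.3; variance against an intensity-trended robust prior of 4.90 degrees of freedom, one-sided) and with the typical-variance test (loess span 0.3), each with Benjamini-Hochberg adjustment and a threshold of 0.05. On simulated data for 6211 probe sets with unequal variances, the typical-variance test recovered 87 of 100 probe sets with SD raised 3-fold and also called 513 of 6011 unraised ones, and limma recovered 1 of 100. Calls of the typical-variance test are thus of probe sets more variable than most of like signal. Pairs were tested with scipy 1.17.1, using the brightest tested probe set of each gene. Pairs whose livers fell into separate clusters were not correlated.

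Members, lists, pairs and tests were chosen with earlier results of these data known. Named genes were all members and the 5 nearest patterns to 4 of them. From the iron and heme lists, those past the typical-variance test and the 3 widest of each list were named. From the marker lists, the 5 tested erythroid markers were named, and 4 neutrophil markers chosen after their values were seen. Alternatives were other scalings, floors and signal filters, removal of probe sets with shared sequences, centring within arrays 1 to 4 and 5 to 8, and leaving out livers. No pair of arrays shared more than 0.296% of values, so none was a duplicate. Each label describes 1 mouse per array, and the precision is limited by the 8 arrays.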

Additional observations from a re-analysis of the deposited data

Results flagged for a closer look

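Of 76 probe sets examined for a lone value among the 8 livers (15 of these genes and 61 of the other listed iron and heme genes), 5 had 1 liver set apart by more than the critical share of the whole range. Chance gives about 1 in 20 such groups. Atf3 in liver 4 was 563, with the others between 184 and 272 (gap over range on the log2 scale 0.649). Nfs1 in liver 4 was low at 725, with the others between 972 and 1251 (0.538). Usf2, a transcription factor that binds the Hamp promoter, was 1541 in liver 1 and 736 to 1035 elsewhere (0.538). The heme transporter Slc48a1 was low in liver 1 at 329, with the others between 457 and 611 (0.532). The middle Tfrc control probe set was 34.5 in liver 8 and between 5.2 and 19 elsewhere (0.53), with values under the floor set to it. The causes were not tested.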

How the results depend on the processing

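No paired analysis was possible because all 8 livers form 1 group. No result past its threshold changed direction. Probe sets called by limma, 0 as deposited, were 10 with arrays scaled to the same median, 2 when centred within arrays 1 to 4 and 5 to 8, 21 with shared-sequence probe sets removed, 2 with signals above the 75th percentile, and 0 to 4 when 1 liver was left out. Those past the typical-variance test, 699 as deposited, were 1060 without a signal filter and 348 above the 75th percentile. Iron and heme probe sets past it, 4 as deposited, were 2 with shared sequences removed (7 tested), 2 without livers 4 and 8, and 3 to 4 with 1 liver left out. Gene pairs that passed, 1 as deposited, were 2 with equal medians, 3 after quantile normalization (6 run), 2 with scaling to the 50 brightest other probe sets (6 run), 0 when centred in that way, 0 without livers 4 and 8, and 0 to 2 with 1 liver left out. Lcn2 and Cp was lost when centred (r = 0.91, adjusted p = 0.125) and without livers 4 and 8 (r = 0.43, adjusted p = 0.556). With 1 liver left out its r was 0.80 to 0.93, with the call lost without liver 3, 4 or 8 and no value without liver 1, where the livers fell into clusters. Hamp and Lcn2 passed with equal medians (r = -0.84) and after quantile normalization (r = -0.82), and with 1 liver left out r was -0.90 (without liver 5, past the threshold) to -0.73. Lcn2 and Hp passed after quantile normalization (r = 0.97) and with scaling to the 50 brightest other probe sets (r = 0.95). Limma passed Lcn2 with equal medians (adjusted p = 0.027), with shared sequences removed (0.0262) and without liver 2 (0.0495). The scaling to the 50 brightest other probe sets was chosen after seeing the data. Without detection calls, dim signals cannot be told from background, and 1 group of 8 arrays limits what the pair tests can show. The causes of these changes were not tested.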
